A study of Mus musculus with 16 samples.

Results

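The genes described here control the G1 phase of the cell cycle. They are 10 genes taken by symbol from the table of estimated counts, out of 24411 genes in all, and comprise the D-type cyclins Ccnd1, Ccnd2 and Ccnd3, their kinases Cdk4 and Cdk6, the pocket proteins Rb1 and Rbl2, and the kinase inhibitors Cdkn1b (p27), Cdkn2a (p16 and p19ARF) and Cdkn2c (p18). All 10 passed the filter on low counts in every comparison. RNA was measured in muscle stem cells (MuSCs) sorted from skeletal muscle, in 16 libraries that fall into 4 groups of 4. The groups were control MuSCs, labelled wild type, and TRF2 knockout MuSCs (TRF2 MuSC-cKO, here cKO), each from uninjured muscle or from muscle 3 days after injection of 10 µl of notexin into the tibialis anterior (3 DPI). Notexin is a snake toxin that destroys myofibers and so makes MuSCs divide. The cKO mice carry floxed TRF2 alleles and a tamoxifen-inducible Cre recombinase expressed from Pax7, so that only cells with an active Pax7 locus at the time of tamoxifen can lose the gene. The sources used here do not say which of these alleles the control mice carry, and the sample records give no age.

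A D-type cyclin binds CDK4 or CDK6, and the complex phosphorylates the pocket proteins RB1 and RBL2 (p130). Unphosphorylated pocket proteins hold E2F transcription factors in check, and their phosphorylation frees the genes of DNA replication for transcription. The INK4 inhibitors p16 and p18 bind CDK4 and CDK6 directly, p19ARF acts on MDM2 and p53, and p27 acts mainly on complexes of cyclin with CDK2. Quiescent MuSCs are known for high p27 and for pocket proteins that keep them out of the cycle, and injury brings them back into it.

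Library totals ran from 620506 to 1351130 estimated counts, so that a gene at 3 counts stands at 2.47 to 4.63 CPM (the usual measure of counts relative to library size, scaled by TMM, the trimmed mean of M values), and intervals or floors of this kind cover counting error only. In 15 libraries between 19996 and 21879 genes had a count, and in cKO replicate 3 at 3 DPI 15387 did, so results that use it are also given without it where it decides them. Terf2, the targeted gene, stood at 66.3 to 94.5 CPM in uninjured control libraries and at 27.2 to 58.7 CPM in uninjured cKO libraries, without overlap (fitted log2 fold change -0.62, SE 0.27, edgeR adjusted p = 0.199). At 3 DPI it stood at 35.5 to 48.6 CPM in control libraries and at 21.9 to 89.7 CPM in the libraries labelled TRF2 knockout, which are not lower as a group. A gene-level count does not show which exons are left. The summed level of 10 MuSC markers, Pax7 and Itga7 among them, was 4102 to 6143 CPM in uninjured control libraries, 2294 to 3420 CPM in uninjured cKO, 1076 to 1584 CPM in control at 3 DPI and 485 to 686 CPM in cKO at 3 DPI. The summed level of 12 macrophage and myeloid markers was 87.7 to 129 CPM and 146 to 193 CPM in the uninjured groups, against 5546 to 7122 CPM in control and 2333 to 6699 CPM in cKO at 3 DPI, and no marker of either list was at 0 throughout a group. The descriptions of the samples carry a code of unstated meaning that separates uninjured control from uninjured cKO libraries completely, so that code and genotype cannot be told apart there. Within each uninjured group replicates 1, 2 and 3 share a code, and at 3 DPI replicates 1 and 2 of control and of cKO all carry the same code. Replicate 4 of each uninjured group shares a code with replicates 3 and 4 of its genotype at 3 DPI. A fit with the code as a term therefore estimates an injury effect from replicate 4 alone of the uninjured group. A call lost in such a fit does not show dependence on the code. The SDs and permutation tests below treat the 4 libraries of a group as independent.

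**Figure D1:**
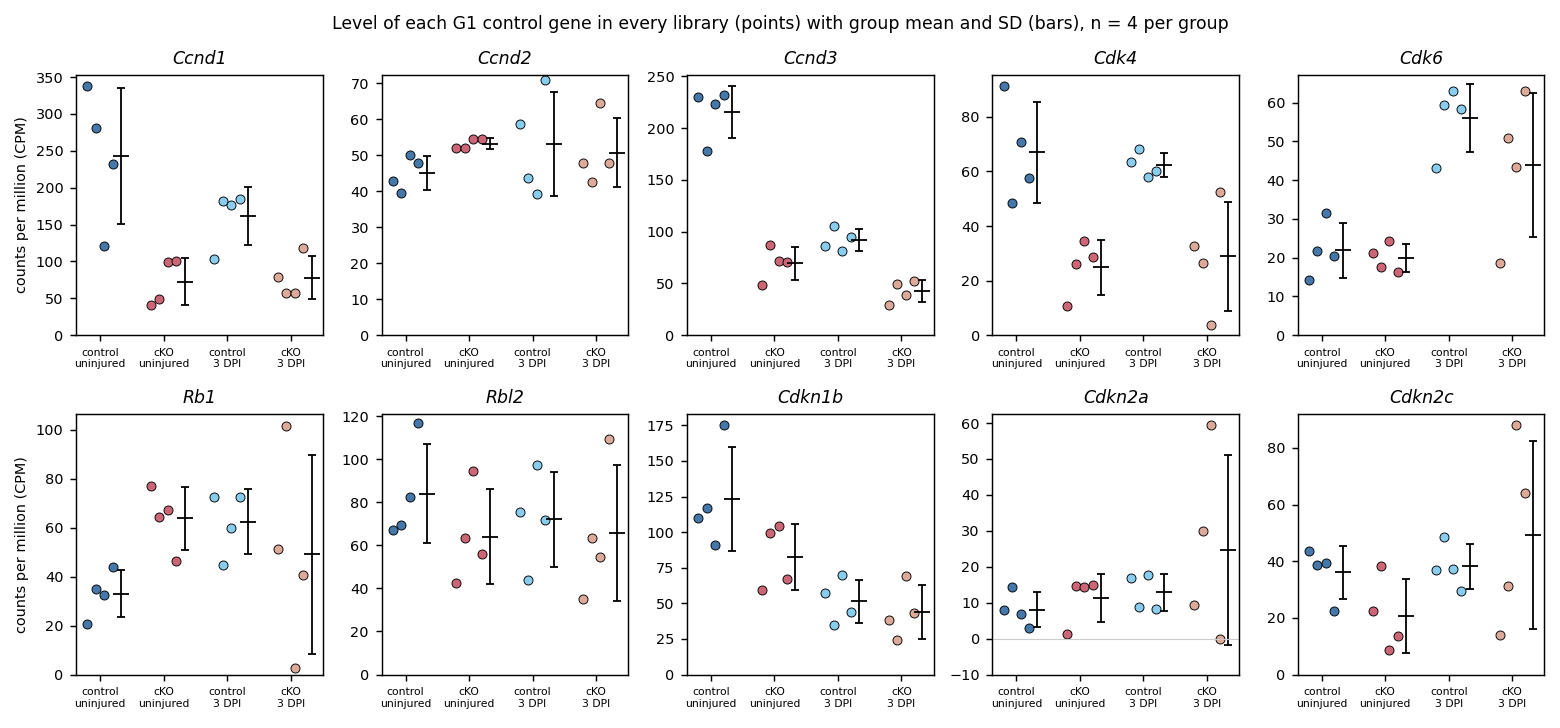
Level of the 10 genes in CPM (vertical axes, each with its own linear scale) in every library (points, in order of replicate number) of the 4 groups, with the group mean and SD (bars, n = 4). The uninjured control libraries stand above the uninjured cKO libraries for Ccnd1, Ccnd3 and Cdk4 and below them for Rb1, and cKO replicate 3 at 3 DPI has the lowest Cdk4 (3.72 CPM) and Rb1 (2.48 CPM).

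Levels of different genes were compared per transcript length, as CPM of the deposited table that is rescaled by abundance (per-length CPM). In uninjured control MuSCs Ccnd3 was the most abundant of the 10 at 247 ± 29.0 per-length CPM (SD, n = 4), above Ccnd1 at 142 ± 51.5, Cdk4 at 118 ± 33.7 and Cdkn1b at 115 ± 26.3, whose ranges overlapped each other. Cdkn2c followed at 63.6 ± 17.4 per-length CPM, and Rb1 was last at 15.9 ± 4.26. Below Cdkn1b every gene overlapped the next in this order. In uninjured cKO MuSCs Ccnd3, at 98.4 ± 18.7 per-length CPM, overlapped Cdkn1b at 97.4 ± 24.99, and Rb1 stood at 38.9 ± 9.63. In control MuSCs at 3 DPI Cdk4 (111 ± 13.4), Ccnd3 (108 ± 12.3) and Ccnd1 (97.1 ± 17.9) overlapped each other and stood above Cdk6 at 52.5 ± 5.01 per-length CPM. In cKO libraries at 3 DPI every gene overlapped the next, and the first place of Cdkn2a (82.5 ± 90.4 per-length CPM) rests on replicate 3, at 203 per-length CPM, while replicate 4 had 0 counts of the gene.

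In GRCm38 (GENCODE M21) Ccnd3 lies on chromosome 17 at 47505051-47599691 on the plus strand and Cdk4 on chromosome 10 at 127063534-127067920 on the plus strand. Ccnd1 lies on chromosome 7 at 144929931-144939925 on the minus strand, Rb1 on chromosome 14 at 73183673-73325822 on the minus strand, Cdk6 on chromosome 5 at 3341485-3531008 on the plus strand and Cdkn1b on chromosome 6 at 134920401-134925513 on the plus strand. Ccnd2 lies on chromosome 6 at 127125162-127152193 on the minus strand, and Cdkn2a (89274471-89294653) and Cdkn2c (109660876-109667189) both lie on the minus strand of chromosome 4. Rbl2 lies on chromosome 8 at 91070057-91123844 on the plus strand. All 10 are protein-coding. Cdkn1b, Cdkn2a and Cdkn2c overlap no other annotated gene. The other 7 share bases with genes on the opposite strand, such as the last 361 bases of Ccnd3 with Bysl, 641 bases of Cdk4 with Tspan31, and the span of Rb1 with Rcbtb2 and Lpar6, and Rb1 also with Gm17233 and Mir687 on its own strand. The kit keeps the strand of a transcript, but whether the quantification used it is not stated in the sources used here.

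RefSeq promoter windows (GRCm38.p6, 250 bases before to 50 bases after a transcription start) were at hand for 7 of the 10 genes, 10 windows in all, and not for Ccnd1, Ccnd2 and Rb1. The 250 bases before the start are shown for Ccnd3 and Cdk4, which were lower in uninjured cKO MuSCs, and for Cdkn1b, which with Ccnd3 was lower after injury in control MuSCs. Capitals mark a G-quadruplex motif, meaning 4 runs of at least 3 G, or of C when the motif lies on the other strand, with loops of 1 to 7 bases. The windows lie at chr17:47504801-47505050 (+) for the upstream start of Ccnd3, chr17:47593217-47593466 (+) for its downstream start, which is inside the gene's span, chr10:127063285-127063534 (+) for Cdk4 and chr6:134920151-134920400 (+) for Cdkn1b.
Ccnd3, upstream start: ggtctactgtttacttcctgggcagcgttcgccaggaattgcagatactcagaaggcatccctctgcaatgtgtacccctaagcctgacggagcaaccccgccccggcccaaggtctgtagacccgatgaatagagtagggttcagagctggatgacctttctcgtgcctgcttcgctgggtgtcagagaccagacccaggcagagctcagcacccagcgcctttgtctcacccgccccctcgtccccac
Ccnd3, downstream start: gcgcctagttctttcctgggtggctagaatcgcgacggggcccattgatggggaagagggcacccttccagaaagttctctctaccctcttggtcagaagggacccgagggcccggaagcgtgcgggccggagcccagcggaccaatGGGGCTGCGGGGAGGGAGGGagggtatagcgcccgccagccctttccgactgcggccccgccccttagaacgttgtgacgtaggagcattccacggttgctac
Cdk4: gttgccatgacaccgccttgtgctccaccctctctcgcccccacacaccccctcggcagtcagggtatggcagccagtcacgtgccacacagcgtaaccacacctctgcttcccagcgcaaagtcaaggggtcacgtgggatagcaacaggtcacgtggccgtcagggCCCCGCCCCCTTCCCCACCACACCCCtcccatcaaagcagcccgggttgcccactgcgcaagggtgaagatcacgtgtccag
Cdkn1b: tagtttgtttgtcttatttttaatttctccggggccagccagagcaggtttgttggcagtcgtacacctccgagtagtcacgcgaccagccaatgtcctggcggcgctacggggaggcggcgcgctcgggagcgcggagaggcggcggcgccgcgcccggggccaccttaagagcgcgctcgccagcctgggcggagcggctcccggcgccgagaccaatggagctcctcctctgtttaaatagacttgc

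The downstream window of Ccnd3 holds 1 G-quadruplex motif, which begins 103 bases before the start, and the window of Cdk4 holds 1 on the other strand, 82 bases before the start. A window of Cdkn2c holds 3. Of 32851 promoter windows, 18.6% hold such a motif on either strand. The E2F letters TTTCCCGC occur 99 bases before the start of the window that belongs to the ARF transcript of Cdkn2a, and in 1.07% of all windows. The other E2F letters searched, TTTGGCGC, are in none of the members' windows and in 0.514% of all. The CHR letters TTTGAA (cell cycle genes homology region) are in the window of Rbl2 and in 17.9% of all windows. The window of Cdk4 also holds the E-box letters CACGTG 4 times, which are lower case in the sequence. That motif was chosen after the Cdk4 sequence was read. The window of Cdk6 and a window of Cdkn2c hold 1 each. The E-box letters are in 7.15% of all windows, and 8 windows hold them 4 or more times. These matches are letters in a window and show no binding.

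The first comparison asks how uninjured MuSCs of cKO mice differ from those of control mice. Transcripts of 2 D-type cyclins and of their kinase CDK4 were lower in cKO MuSCs. Ccnd1 stood at 339, 281, 121 and 232 CPM in the control libraries and at 41.4, 48.8, 98.8 and 101 CPM in the cKO libraries. Every cKO library was below every control library, and the lowest control library, replicate 3, was close to the highest cKO library. The fitted difference for Ccnd1, the cyclin that answers growth factor signals, was -1.63 on the log2 scale (SE 0.28), a level 3.11-fold lower (edgeR adjusted p = 0.000464). Ccnd3, the D-type cyclin linked to myogenic differentiation, stood at 230, 178, 223 and 232 CPM in control and at 48.5, 87.3, 71.6 and 70.8 CPM in cKO libraries. The groups were far apart, with a log2 fold change of -1.51 (SE 0.22), 2.84-fold lower (adjusted p = 8.53e-06). Cdk4 stood at 91.1, 48.6, 70.9 and 57.5 CPM in control and at 10.7, 26.0, 34.4 and 28.6 CPM in cKO libraries, again without overlap, and was 2.49-fold lower (log2 fold change -1.32, SE 0.33, adjusted p = 0.00991). The lowest of these values, 10.7 CPM, rests on 9 counts.

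Calls needed an adjusted p under 0.02 and a change of more than 1.5-fold. By this rule 3 of the 10 genes were called lower, where 2.63% of the 14048 genes tested were, and none was called higher, where 0.584% were. The groups did not overlap for 5 of the 10 (Ccnd1, Ccnd2, Ccnd3, Cdk4 and Rb1), against 12.6% of all genes tested. Ccnd3 was called under all 18 alternatives, with log2 fold changes from -1.65 to -1.33. The call of Ccnd1 was lost under 3 of 18 alternatives, among them limma's robust fit (adjusted p = 0.0819), the rescaled table (0.0733) and the replicate block. The call of Cdk4 was lost under 7 of 17 alternatives (adjusted p 0.021 to 0.172), among them the fits without control replicate 1 (adjusted p = 0.0752), cKO replicate 1 (0.0561) or cKO replicate 2 (0.021), while its log2 fold change stayed between -1.52 and -1.08. In bulk RNA, fewer cells of a type in a sample and less RNA of a gene per cell cannot be told apart. In the same comparison 6 of 10 MuSC markers were called lower, with a median log2 fold change of -0.83, and no macrophage marker of 7 tested was called. Markers of fibroadipogenic cells went both ways. Of 8, 5 were tested, Col3a1 (5313 ± 1316 to 1114 ± 457.6 CPM) and Dpt were called lower and Dcn (51.6 ± 19.3 to 109 ± 11.1 CPM) was called higher, with a median log2 fold change of 0.65. Their summed level, mostly Col3a1, was 4467 to 6966 CPM in control and 1008 to 2020 CPM in cKO libraries. Of 6 pericyte and smooth muscle markers Rgs5 (1.33) and Cspg4 (0.88) were called higher and none lower, with a median log2 fold change of 0.67, and no endothelial, Schwann cell or myofiber marker was called. The part of these markers in the lower Ccnd1, Ccnd3 and Cdk4 was not tested.

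The other 7 genes did not pass. Rb1, the pocket protein of the retinoblastoma gene, stood at 20.5, 35.1, 32.6 and 43.9 CPM in control and at 76.9, 64.4, 67.3 and 46.3 CPM in cKO libraries. All cKO libraries were higher, with a log2 fold change of 1.08 (SE 0.30), but the adjusted p of 0.0238 missed the threshold. Rb1 passed with DESeq2 (adjusted p = 0.0107), with library size alone (0.00785) and with at least 10 counts in every library (0.00704), and over all 18 alternatives its adjusted p ran up to 0.534. Ccnd2, the third D-type cyclin, was at 45.1 ± 4.69 CPM in control and 53.2 ± 1.40 CPM in cKO MuSCs (SD, n = 4). Its libraries did not overlap either, yet its log2 fold change was 0.36 (SE 0.28, adjusted p = 0.499). Cdk6, the alternative kinase, was at 14.3 to 31.4 CPM in control and 16.3 to 24.3 CPM in cKO libraries (log2 fold change -0.02, SE 0.43, adjusted p = 0.987). That SE allows a change of Cdk6 that this comparison could not detect. The log2 fold change was -0.27 (SE 0.26) for Rbl2, -0.45 (SE 0.24) for Cdkn1b, -0.64 (SE 0.40) for Cdkn2c and 0.57 (SE 0.67) for Cdkn2a, with adjusted p values from 0.288 to 0.678. Cdkn2a was measured on 1 to 16 counts in these 8 libraries, and its count sums the p16 and p19ARF transcripts.

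**Figure D2:**
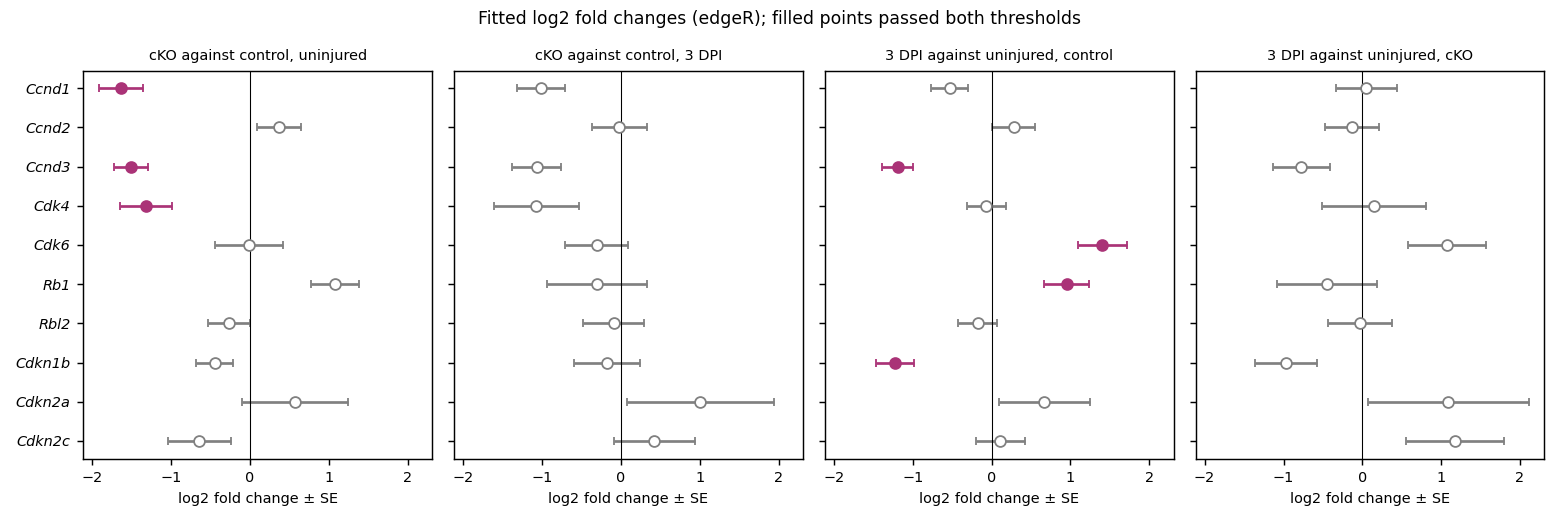
Fitted log2 fold changes (horizontal axis) of the 10 genes (rows) in the 4 comparisons, with standard errors, from edgeR fits on 8 libraries each. Filled points passed both thresholds, which are Ccnd1, Ccnd3 and Cdk4 in uninjured cKO against control and Ccnd3, Cdk6, Rb1 and Cdkn1b in control MuSCs after injury.

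Genes around these in the G1 pathway were described in the same way. Of 33 other G1 control genes, comprising the E-type cyclins, E2F factors, further inhibitors and the MuvB complex, 29 were tested and 1 was called higher and 1 lower (3.45% each, against 0.584% and 2.63% of all genes), and their median log2 fold change was 0.11, beside 0.06 over all genes. Cdkn1a, the p53 target p21 that inhibits CDK2, rose from 104 ± 16.1 CPM in control to 492 ± 66.2 CPM in cKO MuSCs (SD, n = 4), a log2 fold change of 2.37 (SE 0.20, adjusted p = 3.5e-11). Cdkn1c, the inhibitor p57, fell from 96.8 ± 31.9 to 37.3 ± 5.58 CPM (log2 fold change -1.25, SE 0.27, adjusted p = 0.00259). The call of Cdkn1c was lost with all 16 libraries in 1 fit (adjusted p = 0.0262), with the rescaled table (0.0464) and without control replicate 1 (0.0493). Of 22 E2F target genes, which encode replication proteins such as MCM2 and PCNA, 17 were tested and none was called by edgeR, limma or DESeq2. Their median log2 fold change was 0.07, from -1.28 to 1.01 in all. An unadjusted p under 0.05 was found for 4 of the 17, beside 2736 of all 14048 genes tested.

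At 3 DPI none of the 10 genes was called between libraries labelled TRF2 knockout and control libraries, where 0.0% of the 14559 genes tested were by edgeR and 1362 genes had an unadjusted p under 0.05. Of the 10, 2 (Ccnd1 and Ccnd3) had an unadjusted p under 0.05, and none was called by limma or DESeq2. Over all genes limma's robust fit called 18 lower and 10 higher, voom none, and DESeq2 17 lower and 5 higher. Ccnd1 stood at 103, 182, 177 and 185 CPM in control and at 79.4, 57.7, 57.0 and 119 CPM in cKO libraries, and control replicate 1 fell within the range of the cKO libraries. The log2 fold change was -1.01 (SE 0.30, unadjusted p = 0.0057, edgeR adjusted p = 0.452). Ccnd3 stood at 86.5, 105, 81.6 and 94.6 CPM in control and at 29.2, 49.6, 38.4 and 52.4 CPM in cKO libraries. Those groups did not overlap, and the log2 fold change was -1.07 (SE 0.31, unadjusted p = 0.00408, adjusted p = 0.452). Cdk4 stood at 63.3, 68.1, 58.0 and 60.1 CPM in control and at 32.7, 26.5, 3.72 and 52.4 CPM in cKO libraries, also without overlap (log2 fold change -1.07, SE 0.54, adjusted p = 0.551). Without cKO replicate 3 its log2 fold change was -0.72.

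Groups without overlap at 3 DPI were thus seen for 2 of the 10 (Ccnd3 and Cdk4), against 7.84% of all genes tested. The spread between libraries was larger here, with a biological coefficient of variation of 0.495 against 0.297 in uninjured muscle. The other 7 genes had log2 fold changes from -0.31 for Rb1 to 1.01 for Cdkn2a with SEs from 0.35 to 0.93. Rb1 was at 51.4, 101, 2.48 and 40.8 CPM in the cKO libraries, so that its low value came from replicate 3, on 2 counts, and its log2 fold change without that library was 0.08. Of the INK4 genes, the cKO libraries had Cdkn2a at 9.35, 30.0, 59.5 and 0 CPM and Cdkn2c at 14.02, 31.1, 88.02 and 64.1 CPM. The control libraries lay at 8.23 to 17.7 CPM for Cdkn2a and at 29.6 to 48.6 CPM for Cdkn2c, inside the range of the cKO libraries. Without cKO replicate 3 the log2 fold change was 0.069 for Cdkn2a and -0.049 for Cdkn2c. In the replicate without a count of Cdkn2a, 3 counts would have been 3.49 CPM. Of the other G1 control genes 31 were tested and none was called by edgeR, while 3 had an unadjusted p under 0.05, and of the 22 E2F target genes none was called by edgeR. The median log2 fold change of the E2F target genes was -0.58, beside 0.0014 over all genes, with 18 below 0 and 4 above. For 7 of the 22 the groups did not overlap. Among these Chaf1a was higher in cKO libraries (log2 fold change 0.94) and the others were lower. Mcm3 and Rrm2, 2 of those lower, each stood at 0 CPM in a cKO library. Macrophage markers had a median log2 fold change of -0.52 in this comparison and MuSC markers one of -0.75, and the part of either in these values was not tested.

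The next comparison asks how control libraries from muscle 3 days after injury differ from those of uninjured muscle. The name MuSC follows the sort. At 3 DPI macrophage and myeloid markers summed to 5546 to 7122 CPM in these libraries, beside 1076 to 1584 CPM for MuSC markers. A change in the cells present and a change in RNA per cell cannot be told apart here. Members moved in both directions. Ccnd3 fell from 216 ± 25.3 to 91.9 ± 10.2 CPM (SD, n = 4), a log2 fold change of -1.19 (SE 0.20, adjusted p = 4.83e-06). Cdkn1b, the p27 inhibitor of quiescent cells, stood at 110, 117, 90.7 and 175 CPM in uninjured and at 57.1, 35.01, 69.8 and 43.6 CPM in injured muscle. It fell 2.34-fold (log2 fold change -1.23, SE 0.24, adjusted p = 9.17e-05). Both were called under all 19 alternatives. Cdk6 stood at 14.3, 21.6, 31.4 and 20.5 CPM before and at 43.2, 59.3, 62.9 and 58.4 CPM after injury. It rose 2.65-fold (log2 fold change 1.41, SE 0.31, adjusted p = 0.000448). With the code of the sample descriptions as a term Cdk6 was not called, in a fit where only uninjured replicate 4 shares a code with injured libraries. Its log2 fold change stayed between 1.23 and 1.65 over all 19 alternatives.

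Rb1 rose from 33.02 ± 9.63 to 62.4 ± 13.2 CPM after injury in control MuSCs (log2 fold change 0.96, SE 0.29, adjusted p = 0.00978). That call was lost under 9 of 19 alternatives, among them the code as a term. It was also lost without uninjured replicate 1 (adjusted p = 0.0605) or 2 (0.0248), or without 3 DPI replicate 1 (0.0384), 3 (0.0259) or 4 (0.0449). The log2 fold change of Rb1 stayed between 0.68 and 1.13. In all, 2 of the 10 genes were called lower, where 9.46% of the 15356 genes tested were, and 2 were called higher, where 10.8% were. The groups did not overlap for 4 of 10, against 24.3% of all genes. Ccnd1 had a log2 fold change of -0.53 (SE 0.23, adjusted p = 0.0939), and passed without uninjured replicate 3, the library in which it stood at 121 CPM (log2 fold change -0.79, adjusted p = 0.00193). Cdk4 was at 67.0 ± 18.5 CPM before and 62.4 ± 4.38 CPM after injury (log2 fold change -0.07, SE 0.25), but its direction was positive with library size alone (0.10). The remaining members were not called, with a log2 fold change of 0.28 for Ccnd2, -0.18 for Rbl2, 0.67 for Cdkn2a and 0.11 for Cdkn2c (adjusted p 0.472 to 0.855).

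After injury in control muscle the E2F target genes rose. Of 22 tested, 15 were called higher and none lower, with a median log2 fold change of 1.48 beside 0.07 over all genes. The called genes of smallest p were Ccna2, the S-phase cyclin (3.15, SE 0.39), Mcm3 (1.99, SE 0.26) and Mcm2 (1.99, SE 0.30) of the replicative helicase, Uhrf1, which maintains DNA methylation (2.33, SE 0.30), and Rrm1, a ribonucleotide reductase subunit (1.70, SE 0.25), all values log2 fold changes with adjusted p values of 8.12e-07 or less. With the code as a term 8 of the 22 were called and with all 16 libraries in 1 fit 7, while calls over all genes went from 1452 lower and 1652 higher to 673 and 812 and to 734 and 861. Of the 33 other G1 control genes 2 were called higher (6.06%, against 10.8% of all genes) and 1 lower (3.03%, against 9.46%). Ccne1, the cyclin that follows the D-type cyclins, rose by 2.07 (SE 0.57, adjusted p = 0.00488) and E2f8, a repressor E2F, by 1.35 (SE 0.31, adjusted p = 0.000596). Tfdp2, an E2F partner, fell by 0.98 (SE 0.26, adjusted p = 0.00326). None of these 3 was called with the code as a term, and neither Ccne1 nor Tfdp2 was with all 16 libraries in 1 fit or with the rescaled table. Leaving out 3 DPI replicate 4 (adjusted p = 0.0214) or uninjured replicate 4 (0.025) ended the call of Ccne1, and leaving out 3 DPI replicate 2 that of Tfdp2 (0.0305). All 12 macrophage and myeloid markers rose in the same comparison, with a median log2 fold change of 5.53, and 9 of 10 MuSC markers fell, with a median of -1.82. Of 8 fibroadipogenic markers Pdgfra, Ly6a, Dcn and Lum rose and Col3a1 and Dpt fell, with a median log2 fold change of 1.52. The summed level of 6 pericyte and smooth muscle markers was 2259 to 3263 CPM before and 818 to 1075 CPM after injury. Notch3 alone went from 1749 ± 501 to 253 ± 24.7 CPM (SD, n = 4). Notch3 and Acta2 were called lower, but 3 of the 6 were below 0 and 3 above it, with a median log2 fold change of -0.13. Tek was the only endothelial marker called, and it was lower. The other 7 of these 8 endothelial markers lay above 0, and on the log2 scale the middle value of the list was 0.37. The myofiber marker Ckm was called higher. The part of these markers in the changes of Ccnd3, Cdk6, Rb1, Cdkn1b and the E2F target genes was not tested.

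**Figure D3:**
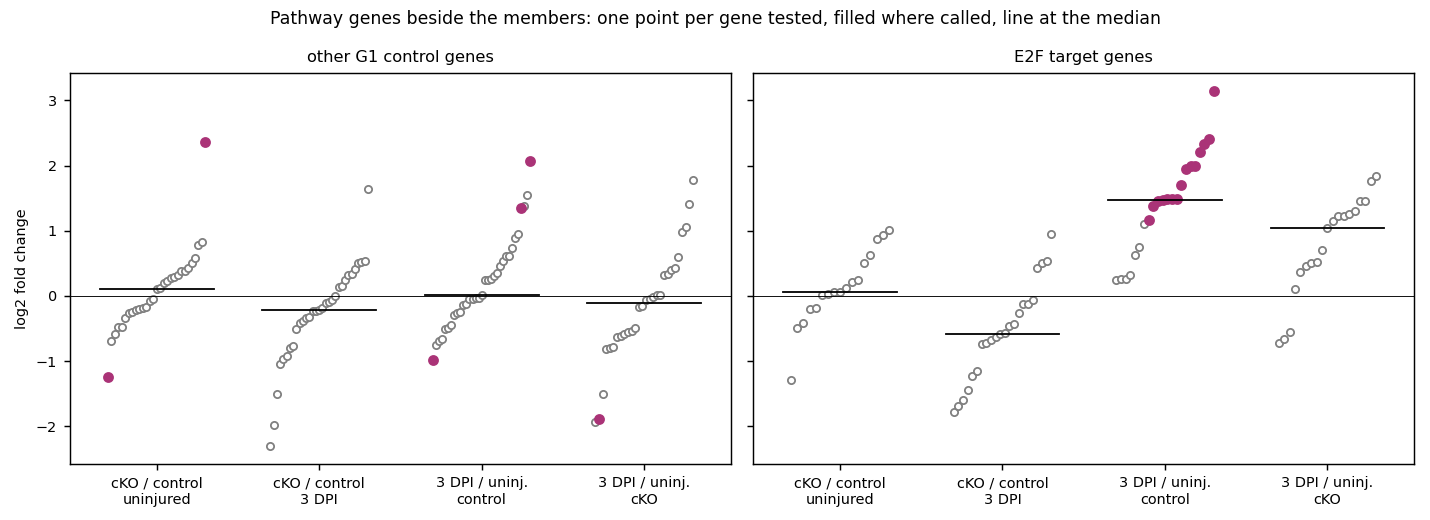
Log2 fold changes (vertical axis) of the other G1 control genes (left) and of the E2F target genes (right) in the 4 comparisons, with 1 point per gene tested, filled where called, and a line at the median. In control MuSCs after injury the edgeR fit called 15 of 22 E2F target genes higher, and in the other comparisons it called none of them.

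Injury in cKO muscle gave no call among the 10 genes with edgeR, limma or DESeq2, while 1.61% of all 14578 genes in the fit were lower by the same rule and 2.43% were higher. Of the 10, 2 (Cdk6 and Cdkn1b) had an unadjusted p under 0.05, beside 2388 of all 14578 genes. The uninjured and injured libraries overlapped for every member, whereas they did not for 13.6% of all genes. Cdk6 stood at 21.3, 17.7, 24.3 and 16.3 CPM before and at 18.7, 50.7, 43.4 and 62.9 CPM after injury. Replicate 1 at 3 DPI stayed within the uninjured range and the other 3 lay above it, with a log2 fold change of 1.07 (SE 0.49, adjusted p = 0.294). Cdkn1b stood at 59.2, 99.7, 104 and 66.7 CPM before and at 38.6, 24.2, 69.4 and 43.1 CPM after injury (log2 fold change -0.97, SE 0.39, adjusted p = 0.214). Replicate 3 at 3 DPI was the only injured library within the uninjured range, and without it Cdkn1b was called (log2 fold change -1.26, adjusted p = 0.0151). Ccnd3 had a log2 fold change of -0.77 (SE 0.36, adjusted p = 0.309), Cdkn2c one of 1.17 (SE 0.62, adjusted p = 0.395), or 0.74 without replicate 3 at 3 DPI, and Ccnd1 one of 0.05 (SE 0.39). Of the E2F target genes 19 were tested, none was called by edgeR, 7 had an unadjusted p under 0.05 and their median log2 fold change was 1.04. With limma's robust fit 2 of them were called, and without cKO replicate 3 at 3 DPI 3 were, while calls over all genes went from 235 lower and 354 higher to 473 and 547 and to 513 and 803. Of the other G1 control genes 28 were tested, and 1, Cdkn1a, was called lower (3.57%, against 1.61% of all genes). Cdkn1a fell from 492 ± 66.2 to 138 ± 17.8 CPM (log2 fold change -1.89, SE 0.23, adjusted p = 0.000136), while in control MuSCs it was at 104 ± 16.1 and 154 ± 39.7 CPM. With the code as a term, where only uninjured replicate 4 shares a code with injured libraries, that fall of Cdkn1a was not called. In this comparison 11 of 12 macrophage and myeloid markers were called higher, with a median log2 fold change of 4.32, and 8 of 10 MuSC markers lower, with a median of -2.003. Notch3 was the 1 pericyte and smooth muscle marker of 6 called, and was lower. Their part in the values of Cdk6, Cdkn1b, Cdkn1a and the E2F target genes was not tested.

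The difference between the genotype effects at 3 DPI and in uninjured muscle was tested as an interaction on all 16 libraries. No member was called, and none had an unadjusted p under 0.05, where 0.0178% of the 16822 genes tested were called in either direction. The interaction was 0.70 (SE 0.47, adjusted p = 0.940) for Ccnd1, 0.52 (SE 0.36, adjusted p = 0.940) for Ccnd3, 0.33 (SE 0.64) for Cdk4 and -1.29 (SE 0.71, adjusted p = 0.890) for Rb1. The lower Ccnd1, Ccnd3 and Cdk4 of uninjured cKO MuSCs were therefore not shown to differ from their values at 3 DPI. Of the 33 other G1 control genes 1 (3.03%) was called, Cdkn1a, with an interaction of -2.40 (SE 0.32, adjusted p = 0.000944). With the code as a term the interaction of Cdkn1a was -2.30 and not called. In that fit the interaction rests on replicate 4 alone in each uninjured group.

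A share within a gene family does not depend on how libraries are scaled against each other. The summed abundance of the 3 D-type cyclins was 407 ± 45.3 per-length CPM in uninjured control, 178 ± 28.7 in uninjured cKO, 226 ± 17.8 in control at 3 DPI and 134 ± 26.1 in cKO at 3 DPI (SD, n = 4). Ccnd2 made up 3.43%, 3.97%, 5.65% and 4.37% of it in the uninjured control libraries and 20.1%, 13.4%, 13.1% and 13.2% in the uninjured cKO libraries. Its share was thus higher in every cKO library while its own level was not called, with a difference of 10.6 percentage points (exact two-sided permutation test, p = 0.0286, the smallest that 4 against 4 libraries allow). At 3 DPI the Ccnd2 share was 9.36% ± 2.73 in control and 17.8% ± 5.26 in cKO libraries (difference 8.45 points, exact p = 0.0286), and from unscaled estimated counts these groups overlapped (12.8 points, exact p = 0.0571). After injury in control MuSCs the share was higher than before it, again without overlap (difference 5.01 points, exact p = 0.0286). The shares of Ccnd1 and Ccnd3 overlapped between genotypes in both states, with differences from -5.64 to -2.82 points and exact p values from 0.286 to 0.771.

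Cdk4 made up 84.7% ± 5.34 of Cdk4 and Cdk6 together in uninjured control MuSCs and 68.0% ± 13.1 in uninjured cKO MuSCs, without overlap (difference -16.7 points, exact p = 0.0286). The uninjured cKO libraries stood at 48.5%, 73.6%, 72.7% and 77.1%. The lowest, replicate 1, rests on 9 counts of Cdk4 and 18 of Cdk6. Cdk4 made up 67.8% ± 4.15 in control MuSCs at 3 DPI, again below the uninjured control (difference -16.8 points, exact p = 0.0286). Rb1 made up 29.4% ± 4.14 of Rb1 and Rbl2 together in uninjured control and 51.7% ± 9.91 in uninjured cKO MuSCs (difference 22.3 points, exact p = 0.0286). In control MuSCs at 3 DPI the Rb1 share was 48.4% ± 6.21 (difference 19.0 points, exact p = 0.0286). In cKO libraries at 3 DPI the Rb1 share ran from 4.50% in replicate 3 to 62.4% in replicate 2 and the Cdk4 share from 13.9% in replicate 3 to 76.8% in replicate 1, and both overlapped every group they were compared with. After adjustment over the 20 share comparisons the smallest p was 0.0816, so none passed 0.05.

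**Figure D4:**
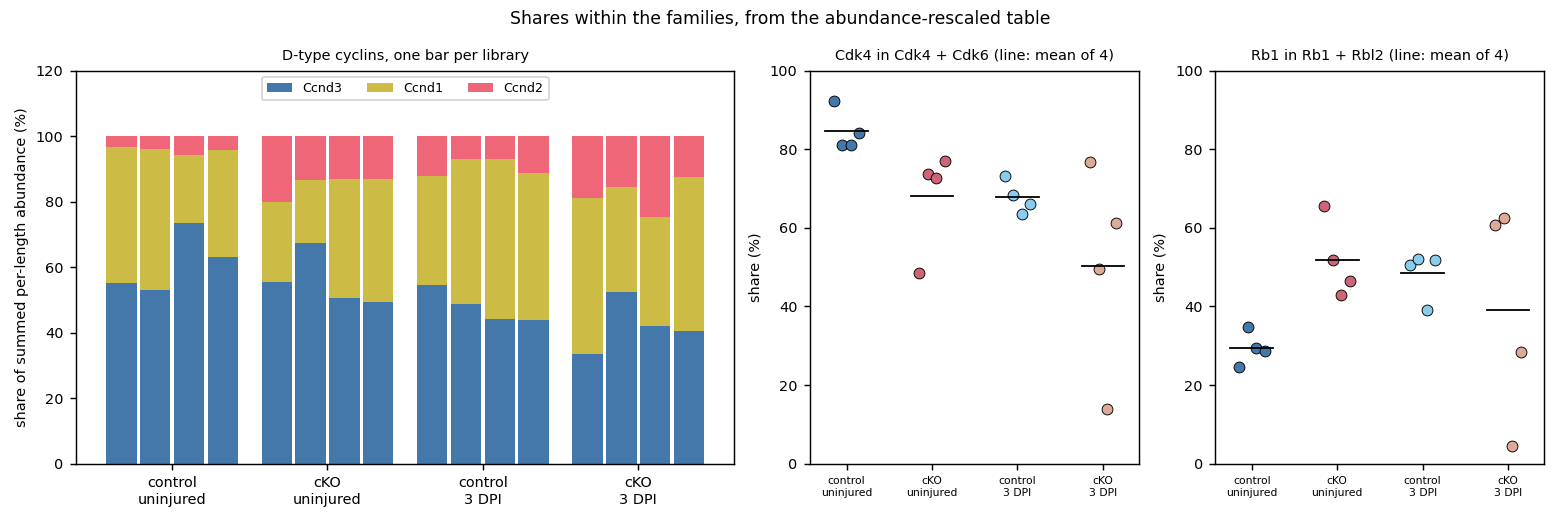
Shares of per-length abundance (vertical axes, %). The left panel stacks Ccnd3, Ccnd1 and Ccnd2 for each library, and the other panels give Cdk4 in Cdk4 and Cdk6 and Rb1 in Rb1 and Rbl2 for each library (points) with group means (lines). The Ccnd2 share lies between 3.43% and 5.65% in uninjured control libraries and between 13.1% and 20.1% in uninjured cKO libraries.

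Across the 16 libraries, which share group differences and depth, log2 CPM of Ccnd1 and Cdk4 had a Pearson r of 0.76, Ccnd1 and Ccnd3 one of 0.74, and Ccnd3 and Cdk4 one of 0.66, given as description. Ccnd2 had an r of -0.36 with Ccnd1 and of -0.28 with Ccnd3. Cdkn1b had an r of 0.66 with Ccnd3 and of -0.59 with Cdk6. Among 16822 genes, the most alike in pattern were Eef1g (0.92) and Eif3h (0.92) for Ccnd1, Mta1 (0.96) and Flnc (0.94) for Ccnd3, and Park7 (0.94) and Cops2 (0.94) for Cdk4. They were Irf9 (0.88) and Snx20 (0.87) for Cdk6, Lace1 (0.93) and Gpa33 (0.93) for Rb1, and Adamts15 (0.92) and Arhgef11 (0.92) for Cdkn1b. For Cdkn2c they were Phgdh (0.91) and Api5 (0.87), and for Cdkn2a Serpinb9 (0.90) and Slc7a4 (0.85). The lowest best matches were those of Rbl2, with Gm1141 (0.80) and Krt8 (0.79), and of Ccnd2, with Tbck (0.78) and 9830107B12Rik (0.76).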

How the data were processed

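MuSCs were sorted by fluorescence-activated cell sorting (negative for CD45, CD31, CD11b and Sca1, positive for VCAM or CD34 and for α7-integrin), and libraries were prepared with the CORALL total RNA kit after removal of ribosomal RNA. Per the labels the authors used Trim Galore 0.6.7, STAR 2.6.1d and Salmon 1.5.2 with GRCm38. They deposited estimated counts per gene without normalization, and a second table of estimated counts rescaled by transcript abundance. Whether unique molecular identifiers were collapsed is not given in the sources used here. Groups and replicate numbers came from the sample records, whose design text calls the replicates biological.

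Estimated counts were rounded, filtered with filterByExpr, scaled by TMM and compared in edgeR 4.0.16 (R 4.3.3, quasi-likelihood, robust) with Benjamini-Hochberg adjustment over all genes, on the 8 libraries of each comparison and on all 16 for the interaction. Calls needed an adjusted p under 0.02, the threshold of the study's methods, and a change of more than 1.5-fold. The SE is the log2 fold change divided by the square root of the test statistic. CPM were scaled by TMM over 16 libraries, with a prior count of 2 in log2 CPM. Shares were compared with exact permutation tests (scipy 1.17.1). Named were all members, Terf2, at most 5 called genes per pathway list and comparison, and the 2 genes most alike to each member. Alternatives were limma 3.58.1 (robust fit and voom), DESeq2 1.42.0, other scalings and filters, all 16 libraries in 1 fit, the replicate block, the rescaled table, the code of the descriptions as a term, and each library left out. The procedure was tested on simulated data. No pair of replicates agreed within sampling noise (chi-square per gene of at least 2.97). Pairs with cKO replicate 3 at 3 DPI stood at 17.4 to 18.6, and no other pair was above 7.14. The members, lists and rules were chosen with earlier results of these data known.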

Additional observations from a re-analysis of the deposited data

Results flagged for a closer look

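In 40 groups of 4 libraries, 1 per gene and group, 3 held a library that stood apart from the other 3 by Dixon's criterion, and chance alone gives about 1 in 20. Ccnd1 in control MuSCs at 3 DPI was at 103 CPM in replicate 1 and at 177 to 185 CPM in the others. Ccnd3 in uninjured control MuSCs was at 178 CPM in replicate 2 and at 223 to 232 CPM in the others. Cdkn2a in uninjured cKO MuSCs was at 1.18 CPM in replicate 1, on 1 count, and at 14.3 to 14.98 CPM in the others. The genotype effect on Cdkn1a differed between 3 DPI and uninjured muscle, with an interaction of -2.40 on the log2 scale (edgeR adjusted p = 0.000944). With the code of the sample descriptions as a term it was -2.30 and not called. In that fit the interaction rests on replicate 4 alone in each uninjured group.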

How the results depend on the processing

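Ccnd3 kept its call in uninjured cKO MuSCs under all 18 alternatives, and Ccnd3 and Cdkn1b kept theirs after injury in control MuSCs under all 19. Of the 10 genes, 3 were called between uninjured genotypes, and 1 was with limma's robust fit or with the rescaled table. Over all genes these fits called 142 lower and 157 higher, and 11 lower and 6 higher, against 370 and 82. After injury in control MuSCs 4 were called, and 2 were with the code of the sample descriptions as a term, where calls over all genes went from 1452 lower and 1652 higher to 673 and 812. After injury in cKO MuSCs none was called, and 1 (Cdkn1b) was without cKO replicate 3 at 3 DPI. Leaving out each library in turn gave 2 to 3 calls between uninjured genotypes, 3 to 5 after injury in control MuSCs and 0 to 1 after injury in cKO MuSCs, and 0 calls at 3 DPI and for the interaction. From unscaled estimated counts the difference in the share of Ccnd2 was 18.9 points between uninjured genotypes and 8.24 points after injury in control MuSCs, both without overlap. Between genotypes at 3 DPI it was 12.8 points, and there the groups overlapped (exact p = 0.0571). The Ccnd3 share after injury in control MuSCs did not overlap from these counts (-13.6 points, exact p = 0.0286). The share of Rb1 between genotypes at 3 DPI ran from -17.1 to 2.17 points as libraries were left out.

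Changes of sign were met only in values that were not called, and the cause was not tested. For Cdk6 between uninjured genotypes the log2 fold change was 0.047 with limma's robust fit, 0.064 with voom, 0.16 with library size alone and 0.064 with at least 10 counts in every library. Between genotypes at 3 DPI it was 0.10 for Ccnd2 and 0.026 for Rbl2 with library size alone, -0.25 for Cdkn2a with voom, and 0.41 for Rb1 and -0.90 for Cdkn2c with the code as a term. After injury in control MuSCs it was 0.10 for Cdk4 with library size alone, 0.041 with at least 10 counts and 0.13 with the code, and for Cdkn2c it was -0.016 with limma's robust fit and -0.54 with the rescaled table. After injury in cKO MuSCs it was -0.015 for Ccnd1 with the rescaled table and -0.24 with the code, 0.00077 for Ccnd2 with library size alone and 0.0057 with the code, and -0.088 for Cdk4 with voom and -0.084 with the code. For Rbl2 it was 0.10 with library size alone, 0.061 with at least 10 counts, 0.039 with all 16 libraries in 1 fit and 0.51 with the code. The interaction was -0.056 for Cdk4 and 0.13 for Cdk6 with the code, and for Cdkn2a -0.11 with limma's robust fit, -0.46 with voom and -1.11 with the code.

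Left-out libraries gave the following ranges where a sign changed. Between uninjured genotypes Cdk6 ran from -0.20 to 0.19. Between genotypes at 3 DPI Ccnd2 ran from -0.19 to 0.13, Rb1 from -0.96 to 0.076, Rbl2 from -0.46 to 0.11, Cdkn1b from -0.52 to 0.011 and Cdkn2c from -0.049 to 0.72. After injury in control MuSCs Cdk4 ran from -0.23 to 0.11, Rbl2 from -0.38 to 0.0022 and Cdkn2c from -0.092 to 0.22. After injury in cKO MuSCs Ccnd1 ran from -0.19 to 0.23, Cdk4 from -0.27 to 0.54 and Rbl2 from -0.35 to 0.21. The interaction ran from -0.12 to 0.58 for Cdk4, -0.44 to 0.036 for Cdk6, -0.10 to 0.47 for Rbl2, -0.072 to 0.54 for Cdkn1b and -0.52 to 0.90 for Cdkn2a.

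Deviations of libraries with the same replicate number had correlations from -0.11 to 0.11, so the numbers were not taken to pair them. Between uninjured genotypes replicates 2, 3 and 4 correlated best with their own number, weakly (0.11, 0.047 and 0.041). In the other comparisons no library did. With the replicate block the log2 fold change was 0.015 for Cdk6 between uninjured genotypes and -0.022 for Cdk4 after injury in cKO MuSCs, the interaction of Cdkn2a was -0.047, and 2 of the 10 genes were called between uninjured genotypes, since Ccnd1 reached an adjusted p of 0.0674 (edgeR). Totals of 620506 to 1351130 estimated counts leave Cdkn2a on 0 to 48 counts a library, too few to detect changes of moderate size.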
